A study of Mus musculus with 36 samples.

Results

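The 8 genes Shpk, Sgcb, Ano3, Vipr1, Htr4, Slco2b1, Rgs14 and Apol8 were followed through SLAM-seq of mouse embryonic stem (mES) cells from which METTL3, YTHDC1 or ZCCHC8 had been removed. They were chosen by the fall of their total RNA, since each fell strongly and in every replicate after METTL3 depletion, and they are 8 of 18419 genes listed for all libraries and of 22979 listed for any. The values of the METTL3 contrast are therefore given as a description, without a test, and tests are given for the YTHDC1 and ZCCHC8 depletions only. The genes were not the 8 with the largest fall. Among 14413 genes tested in the METTL3 line, ordered from the most negative log2 fold change of total RNA, Vipr1 was at rank 2, Htr4 at 4, Slco2b1 at 8, Rgs14 at 10, Apol8 at 24, Ano3 at 32, Shpk at 80 and Sgcb at 84. Many of the genes between them were weakly expressed, and 25 of the 84 genes down to Sgcb had a mean of at least 5 CPM (reads of the gene scaled to a common library total) in control libraries. Prox2, at rank 1, had a log2 fold change of -2.82 and means of 3.30 CPM without and 0.480 CPM with depletion. Slc13a3, at rank 85, was just outside, with a log2 fold change of -1.58 and means of 0.980 and 0.340 CPM.

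All cells were XX mES cells on a Cast x 129S background whose Xist promoter on the 129S allele had been replaced by a TetOn promoter, with Bgl stem-loops in Xist. Each degron line is 1 clone, clone 12D for METTL3, clone Y12H for YTHDC1 and clone Z12H for ZCCHC8, with the FKBP12F36V tag on that protein. Every library, controls included, received doxycycline at 1 µg/ml, so Xist was induced in all of them. The dTAG arm also received dTAG-13, which sends the tagged protein to degradation, from 2 h before doxycycline, and the Ctrl arm did not. After 20 h of doxycycline, new RNA was labelled with 500 µM 4-thiouridine (4sU) for 4 h, and the label was then chased with 50 mM uridine for 0, 90 or 180 min. Labelled RNA at 0 min thus means RNA made during the pulse. In the dTAG arm this RNA, and most of the time in which unlabelled RNA could be made, lay after the addition of dTAG-13. At 90 and 180 min labelled RNA cannot be read as RNA of the pulse alone. Its mean level in Ctrl libraries rose after the 4sU was withdrawn, as described further on. There were 2 replicates of each of 18 groups, 36 libraries in all and 6 per line and arm. The untagged parent line, and Ctrl cells given dTAG-13, were not analysed here.

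N6-methyladenosine (m6A) is placed on nuclear RNA by a complex whose catalytic subunit is METTL3, mostly in a short context of which GGACT is the best known form. YTHDC1 is the reader of m6A in the nucleus, and ZCCHC8 is the scaffold of the NEXT complex, through which the nuclear exosome receives RNA for decay. In mES cells m6A is best known for shortening the life of mRNAs in the cytoplasm, including those of pluripotency factors. The genes themselves belong to no common pathway. Vipr1 encodes a receptor of vasoactive intestinal peptide and Htr4 a serotonin receptor, both coupled to Gs and cyclic AMP. Slco2b1 encodes an organic anion transporter of the plasma membrane, and Rgs14 a scaffold that speeds GTP hydrolysis by Gi proteins. Shpk encodes sedoheptulokinase, which feeds the pentose phosphate pathway, and Sgcb encodes β-sarcoglycan of the dystrophin-associated complex of muscle. Ano3 encodes a member of the anoctamin family of channels and lipid scramblases, and Apol8 a member of the apolipoprotein L family.

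Libraries of the METTL3 line had 9547507 to 18652000 reads, those of YTHDC1 10397753 to 16129632 and those of ZCCHC8 5274684 to 10257631. All 8 genes passed the filter on low counts in each line, with between 3 reads (Htr4) and 1371 reads (Ano3) in a library. The 10 embryonic stem cell markers summed to between 2854 and 4391 CPM per library, and none of them had 0 reads in all libraries of a line and arm. The cell lines were kept on fibroblast feeders, which were removed by preplating before the SLAM-seq cultures, and 12 fibroblast markers summed to 27.6 to 85.5 CPM. The degron acts on protein, and mRNA of the tagged gene checks nothing. Mettl3 was at 53.9 to 62.7 CPM in Ctrl and 55.0 to 61.7 CPM in dTAG libraries.

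Sequences before the start site are shown for the 4 genes with a match to the letters of a GC box or a TATA box. Whether any match works as a promoter element was not tested. Promoters came from RefSeq (GRCm38.p6, the mm10 build), as 250 bases before and 50 bases after the start, and 6 of the 8 genes were matched to 9 starts. Capitals mark matches to the TATA box TATAAA and to the GC box GGGCGG. Both strands were read, so that TTTATA also marks a match to TATAAA and, in the same way, CCGCCC a match to GGGCGG.
Shpk promoter, chr11:73199232-73199481, plus strand: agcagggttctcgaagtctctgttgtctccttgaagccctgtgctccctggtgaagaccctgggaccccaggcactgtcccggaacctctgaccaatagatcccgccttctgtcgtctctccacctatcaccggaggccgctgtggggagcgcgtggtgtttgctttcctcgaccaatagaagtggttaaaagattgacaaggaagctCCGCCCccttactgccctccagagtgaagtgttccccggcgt
Sgcb promoter, chr5:73647738-73647987, minus strand: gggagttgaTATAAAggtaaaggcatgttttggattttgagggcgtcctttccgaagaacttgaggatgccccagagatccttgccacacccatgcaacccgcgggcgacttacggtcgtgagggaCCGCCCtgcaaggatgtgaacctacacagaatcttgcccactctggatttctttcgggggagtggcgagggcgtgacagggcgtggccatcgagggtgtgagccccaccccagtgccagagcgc
Ano3 promoter, chr2:110840060-110840309, minus strand: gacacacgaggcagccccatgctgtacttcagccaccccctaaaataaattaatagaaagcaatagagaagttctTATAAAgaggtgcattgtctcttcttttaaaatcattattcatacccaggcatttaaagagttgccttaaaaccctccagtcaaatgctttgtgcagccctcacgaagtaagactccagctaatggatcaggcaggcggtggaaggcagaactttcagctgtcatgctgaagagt
Vipr1 promoter, chr9:121642466-121642715, plus strand: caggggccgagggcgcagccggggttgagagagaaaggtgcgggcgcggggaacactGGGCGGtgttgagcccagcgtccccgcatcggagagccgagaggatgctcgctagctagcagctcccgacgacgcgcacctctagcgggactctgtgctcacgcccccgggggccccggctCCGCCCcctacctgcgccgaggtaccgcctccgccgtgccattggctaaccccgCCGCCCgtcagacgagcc
The Shpk window held 1 match to CCGCCC and the Sgcb window 1 to CCGCCC and 1 to TATAAA. The Ano3 window shown, 1 of 2 for that gene, held 1 match to TATAAA. The TATAAA match begins at base 10 of the 250 bases shown for Sgcb and at base 76 of those for Ano3, not close to the start. The Vipr1 window held 4 matches to the GC box, of which 1 lies after the start and is not shown. Its GC content of 73.7% was higher than that of 94.9% of the windows. GGGCGG was found in 35.7% and TATAAA in 13.6% of 32851 RefSeq promoters of the same length. Of the motifs of cyclic AMP and E-box factors, TGACGTCA was found in none of the 9 windows and in 1.79% of all, and CACGTG in the other Ano3 window and in 7.15% of all. No match to any of these motifs was found in the 3 Slco2b1 windows or the Apol8 window.

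Because METTL3 methylates adenosine in the GGACT context, the spliced transcripts (GENCODE M21) were searched for these letters on the sense strand. The last coding match before the stop codon is shown for 5 genes, in a window of 21 bases. For Shpk and Ano3 the window of that match crossed an exon junction, and other coding matches were not tried. No window was made for Htr4. Capitals mark GGACT.
Sgcb, chr5:73639852-73639872, minus strand: ttcagcacGGACTatgagacg
Vipr1, chr9:121658106-121658126, plus strand: gtagtcctGGACTgccccctc
Slco2b1, chr7:99662481-99662501, minus strand: tgggggcgGGACTggccagca
Rgs14, chr13:55384041-55384061, plus strand: atcagagaGGACTtcttcgca
Apol8, chr15:77749835-77749855, minus strand: gggatcgtGGACTacacaagt
These windows lie in exon 4 of 6 of Sgcb, exon 3 of 13 of Vipr1, exon 11 of 14 of Slco2b1, exon 15 of 15 of Rgs14 and exon 4 of 4 of Apol8. The transcript of Slco2b1 held 9 matches, that of Ano3 6, Apol8 5, Htr4 4, Vipr1 3, Shpk 2, Sgcb 2 and Rgs14 1, against a median of 3 over 13968 genes. Per kb of transcript, the median of the 8 genes was 0.785 matches against 1.05 over all genes, and 2 of 8 lay above the median of all genes. Whether any of these adenosines is methylated was not analysed here. The genes stood higher in the length of their longest exon, which had a median of 2684 bases against 1504 bases over all genes and was above that median in 7 of 8. Rgs14 was the exception, with 15 exons of which the longest had 692 bases.

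Per length of transcript, Rgs14 and Apol8 were the most abundant of the 8 and Htr4 the least. In Ctrl libraries of the METTL3 line, Rgs14 was at 45.7 ± 22.2 TPM (reads per length of transcript, scaled to a common total), Apol8 at 43.7 ± 23.5 TPM and Sgcb at 33.8 ± 15.1 TPM (SD, n = 6). Ano3 followed at 20.7 ± 15 TPM and Shpk at 18.8 ± 10.7 TPM. Slco2b1 was at 11.2 ± 6.37 TPM, Vipr1 at 7.27 ± 3.11 TPM and Htr4 at 3.77 ± 2.02 TPM. Neighbours from Rgs14 down to Shpk differed by less than either of their SDs. Shpk and Slco2b1, and Slco2b1 and Vipr1, differed by less than the larger SD of the pair but more than the smaller, and Vipr1 and Htr4 by more than both. These SDs include the rise over the chase described further on. Rgs14 and Apol8 changed places in the YTHDC1 line, and Ano3 and Shpk in the ZCCHC8 line.

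Total RNA of all 8 genes was lower in METTL3 dTAG than in Ctrl libraries at every chase time, in 6 of 6 pairs of the same replicate and time, and the replicates of the arms overlapped at no chase time for any of them. Both dTAG replicates were below both Ctrl replicates in 21.7% of all genes tested at 0 min, 16.6% at 90 min and 15.9% at 180 min. Averaged over replicates, the dTAG level was 16.4% to 37.4% of Ctrl at 0 min, 13.4% to 31.6% at 90 min and 14% to 34.6% at 180 min. In this line 8.80% of all genes tested were lower past the threshold of an adjusted p of 0.05 (edgeR), and since the contrast chose the genes nothing is read from it here. In bulk samples, fewer cells of a type and less RNA per cell cannot be told apart.

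**Figure D1:**
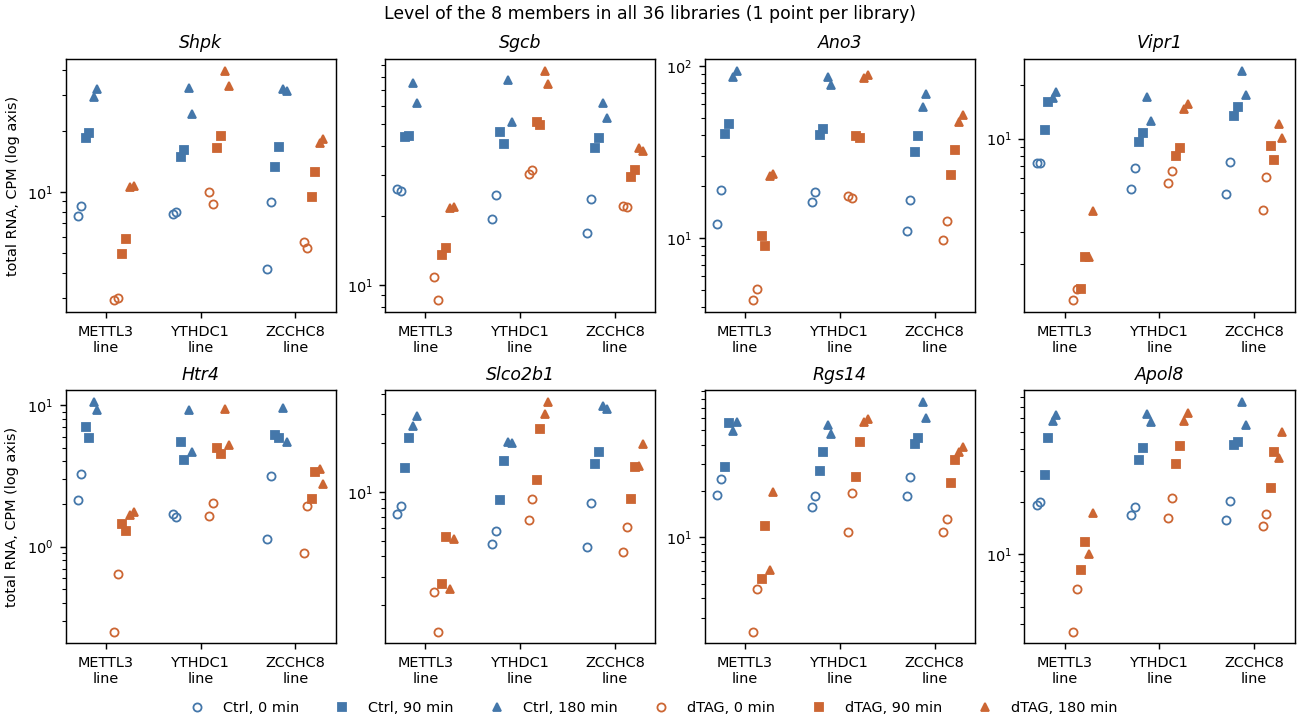
Total RNA of the 8 genes in every library, as CPM on a log axis, in 1 panel per gene. Points are single libraries, ordered by line and chase time and coloured by arm. In the METTL3 line each dTAG point lies below both Ctrl points of its chase time, and in both arms most genes climb with the chase.

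The fall was largest in the receptor genes. Vipr1 (ENSMUSG00000032528, chromosome 9, 121642716 to 121672954, plus strand, mm10) had a lowest, median and highest level of 7.34, 13.6 and 18.3 CPM in the 6 METTL3 Ctrl libraries and of 1.25, 1.82 and 3.97 CPM in the 6 dTAG libraries. The highest dTAG library was below the lowest Ctrl library. The log2 fold change was -2.62 (SE 0.193), a 6.13-fold lower level. At 0 min, labelled Vipr1 RNA was at 6.42 and 7.34 CPM in Ctrl replicates 1 and 2 and at 1.19 and 1.38 CPM in dTAG. Unlabelled Vipr1 RNA was then at 0.924 and 0 CPM in Ctrl, and at 0.0661 and 0.0763 CPM in dTAG, so nearly all Vipr1 RNA of either arm carried label. After 180 min of chase the unlabelled RNA was at 8.01 and 8.23 CPM in Ctrl and at 1.28 and 1.81 CPM in dTAG.

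Htr4 (ENSMUSG00000026322, chromosome 18, plus strand) had the lowest counts of the 8. Its lowest, median and highest level was 2.13, 6.42 and 10.5 CPM in METTL3 Ctrl and 0.250, 1.37 and 1.75 CPM in dTAG libraries, without overlap. The log2 fold change was -2.42 (SE 0.198). Labelled Htr4 RNA at 0 min was at 1.59 and 3.10 CPM in Ctrl and at 0.107 and 0.573 CPM in dTAG. Both dTAG values were under both Ctrl values, but they rest on few reads.

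The transporter gene Slco2b1 (ENSMUSG00000030737, chromosome 7, 99657804 to 99711340, minus strand) was at a lowest, median and highest level of 7.34, 17.8 and 29.3 CPM in METTL3 Ctrl and of 1.37, 2.6 and 5.30 CPM in dTAG libraries, again without overlap. The log2 fold change was -2.35 (SE 0.260). Labelled RNA at 0 min was at 6.51 and 7.74 CPM in Ctrl against 2.30 and 1.19 CPM in dTAG. Unlabelled RNA at 180 min was at 13.9 and 13.6 CPM against 1.26 and 3.13 CPM, which was the lowest share of Ctrl among the 8 genes at that time, at 16.0%.

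Rgs14 (ENSMUSG00000052087, chromosome 13, 55369732 to 55384687, plus strand) had the least even response between replicates. The lowest, median and highest level was 18.9, 39.1 and 56.8 CPM in METTL3 Ctrl and 2.42, 5.75 and 19.9 CPM in dTAG libraries, and the ranges overlapped through the chase although the arms did not overlap at any chase time. The 180 min dTAG libraries were at 6.16 and 19.9 CPM, against 49.6 and 56.8 CPM in Ctrl. The log2 fold change was -2.30 (SE 0.325), and it was -1.95 without replicate 1 and -2.74 without replicate 2. Labelled Rgs14 RNA at 0 min was at 18.5 and 23.9 CPM in Ctrl and at 2.27 and 4.60 CPM in dTAG, and nearly all of it carried label in both arms.

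Shpk (ENSMUSG00000005951, chromosome 11, 73199460 to 73224511, plus strand) and Sgcb (ENSMUSG00000029156, chromosome 5, 73632749 to 73647790, minus strand) fell least of the 8. Shpk had a lowest, median and highest level of 7.66, 19.0 and 32.1 CPM in METTL3 Ctrl and of 2.92, 5.41 and 10.7 CPM in dTAG libraries, a log2 fold change of -1.60 (SE 0.115). Sgcb was at 25.7, 44.2 and 75.6 CPM and at 8.56, 14 and 21.9 CPM, a log2 fold change of -1.58 (SE 0.107). The arms of Sgcb did not overlap over all 6 libraries, whereas those of Shpk were apart only within a chase time, since its 180 min dTAG libraries passed its 0 min Ctrl libraries. At 0 min, labelled Sgcb RNA was at 22.7 and 23.5 CPM in Ctrl and at 8.45 and 6.47 CPM in dTAG. Unlabelled Sgcb RNA at that time was at 3.45 and 2.25 CPM against 2.39 and 2.10 CPM, which overlapped.

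Ano3 (ENSMUSG00000074968, chromosome 2, 110655201 to 110950923, minus strand) was the gene of the 8 with the most unlabelled RNA at the end of the pulse. Its lowest, median and highest level was 12.0, 43.2 and 94.3 CPM in METTL3 Ctrl and 4.34, 9.60 and 23.6 CPM in dTAG libraries, a log2 fold change of -1.95 (SE 0.139). Labelled Ano3 RNA at 0 min was at 6.80 and 13.4 CPM in Ctrl and at 2.75 and 2.82 CPM in dTAG, and unlabelled RNA was at 5.22 and 5.51 CPM in Ctrl and at 1.59 and 2.27 CPM in dTAG. Both pools were lower without overlap. Muc15 lies inside Ano3 on the other strand and had a mean of 0.167 reads per library.

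Apol8 (ENSMUSG00000056656, chromosome 15, 77747798 to 77757003, minus strand) had a lowest, median and highest level of 19.3, 37.3 and 62.9 CPM in METTL3 Ctrl and of 3.59, 9.08 and 17.2 CPM in dTAG libraries, without overlap. The log2 fold change was -2.01 (SE 0.20). Labelled Apol8 RNA at 0 min was at 17.9 and 19.5 CPM in Ctrl and at 2.78 and 6.06 CPM in dTAG. Other apolipoprotein L genes lie on the same chromosome and are alike in sequence, so that the share of reads each receives is uncertain.

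Newly made RNA of all 8 genes was lower at the end of the pulse in the absence of METTL3. Labelled RNA at 0 min was at 14.5% to 32.3% of Ctrl, with no overlap between replicates of the arms in 8 of 8 genes, against 29.0% of all genes lower without overlap at that time, and it stayed at 10.4% to 27.0% at 90 min and 9.17% to 27.7% at 180 min. Over all chase times the log2 fold change of labelled RNA, on log2(CPM + 0.5), was -1.74 for Sgcb, -1.75 for Shpk, -2.09 for Htr4, -2.10 for Ano3, -2.17 for Apol8, -2.22 for Slco2b1, -2.36 for Rgs14 and -2.38 for Vipr1. These values lay between rank 1 and rank 18 of 14413 genes, in a line where 11.0% of genes had lower labelled RNA past the threshold (limma). Labelled and unlabelled RNA are parts of the total RNA by which the genes were chosen, in the same libraries. Their ranks and lack of overlap follow in large part from the choice, so nothing is read from them beside the shares of all genes. The median over all genes tested was -0.14 for labelled and 0.16 for unlabelled RNA, and the values of the 8 genes should be read relative to these shifts.

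Little older RNA was present at the end of the pulse. Apart from Sgcb and Ano3, whose values are given above, unlabelled RNA was at no more than 1.34 CPM in any Ctrl library at 0 min. It was lower without overlap in 3 of 8 genes at 0 min, in 7 of 8 at 90 min and in 8 of 8 at 180 min, against 13.7%, 10.2% and 11.9% of all genes. Shpk was higher without overlap at 0 min, with 0.50 and 0.332 CPM in Ctrl and 0.620 and 0.536 CPM in dTAG. At 180 min unlabelled RNA of the 8 genes was at 16.0% to 48.3% of Ctrl. By then it includes RNA made during the chase, after the 4sU was withdrawn. Over all chase times the log2 fold change of unlabelled RNA lay between -0.60 (Shpk) and -1.59 (Slco2b1), and 2.54% of all genes were lower past the threshold (limma). With each library's label share scaled to a common median it lay between -1.27 and -2.44, and that of labelled RNA between -1.54 and -2.21.

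**Figure D2:**
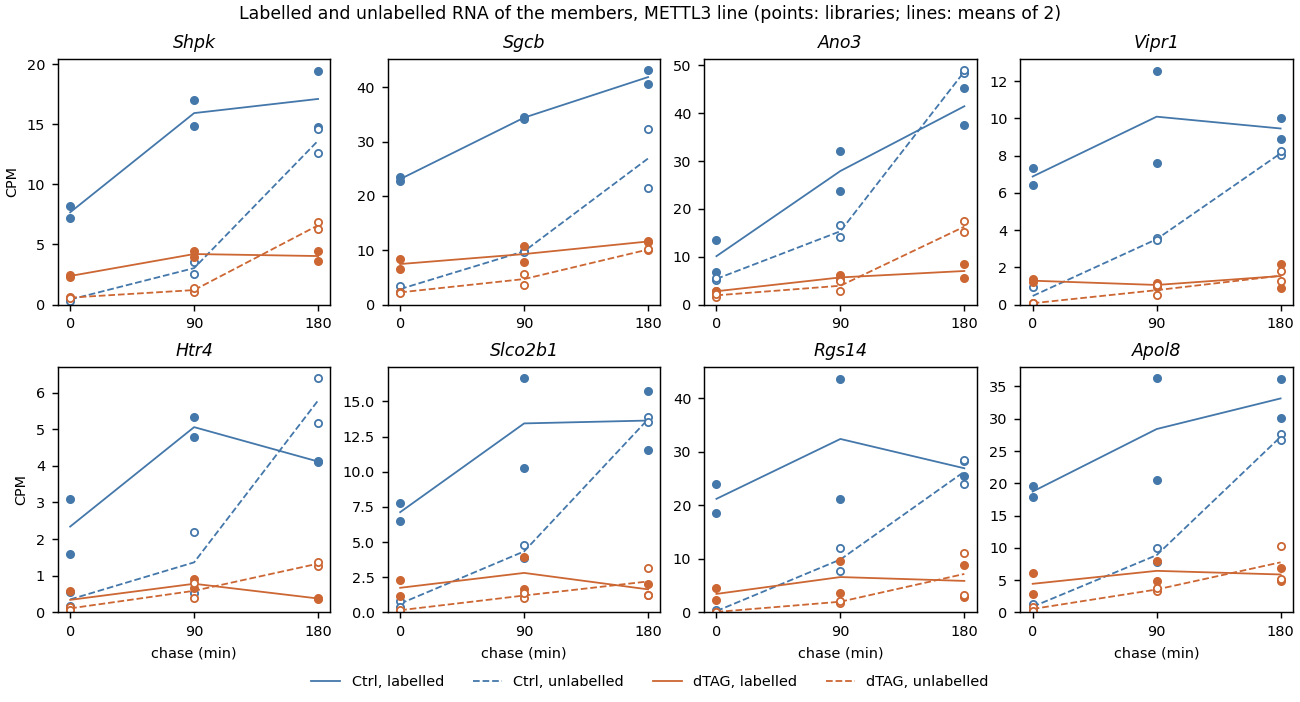
Labelled and unlabelled RNA of the 8 genes in the METTL3 line, in CPM, by chase time. Points are the 2 replicates and lines join their means, in Ctrl and dTAG. Labelled RNA of dTAG lies under Ctrl from 0 min on, while unlabelled RNA starts near 0 in both arms for most genes and then rises further in Ctrl.

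Of the reads of a gene, the share with label was high in all 8 genes but Ano3. In METTL3 Ctrl libraries at 0 min the median share over the 8 genes was 88.1% and 95.6% in the 2 replicates, against a median of 63.4% and 65.3% over genes with at least 20 reads. Rgs14 was at 97.5% and 100%, and Ano3 at 56.5% and 70.9%. In dTAG libraries the median of the 8 genes was 78.4% to 87.6% and that of all genes 51.7% to 55.6%, so the share was lower in dTAG for genes in general. The part of this general shift in the values of the 8 genes was not tested. Loss of label over the chase could be followed in the METTL3 line only for Sgcb, the one gene of the 8 with enough reads in every library. Its slope differed between the arms by 0.01 per h on the log2 scale (SE 0.083).

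**Figure D3:**
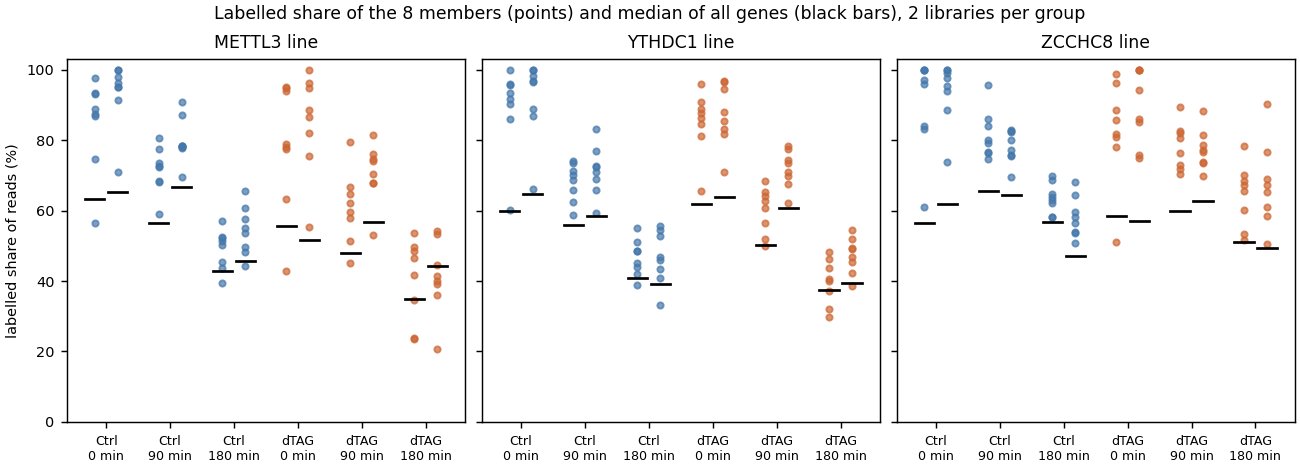
Share of reads that carry label, in percent, for the 8 genes (points) and as the median of all genes with at least 20 reads (line), by chase time in each line and arm. Most of the 8 genes lie above the median of all genes at 0 min, Ano3 being the lowest in Ctrl, and they fall toward it by 180 min.

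After YTHDC1 depletion none of the 8 genes fell or rose past the threshold. In this line 5.25% of genes changed (746 of 14199, edgeR, and 2651 at an unadjusted p under 0.05). Slco2b1 came nearest. Its lowest, median and highest level was 4.80, 12.2 and 20.2 CPM in Ctrl and 6.72, 18.1 and 35.8 CPM in dTAG libraries, higher in 6 of 6 pairs, with a log2 fold change of 0.63 (edgeR adjusted p 0.0792, SE 0.186). Sgcb was at 19.4, 43.5 and 77.9 CPM against 30.3, 50.3 and 85.4 CPM, higher in 6 of 6 pairs, a log2 fold change of 0.34 (edgeR adjusted p 0.112, SE 0.111). Shpk was at 7.80, 15.5 and 32.5 CPM against 8.69, 17.7 and 39.7 CPM, also higher in 6 of 6 pairs, with 0.27 (edgeR adjusted p 0.163, SE 0.0991). With the replicate number as a block these 3 genes were higher past the threshold, at edgeR adjusted p of 3.72e-04 for Slco2b1, 0.0104 for Sgcb and 0.0190 for Shpk, and DESeq2 called Slco2b1 alone (adjusted p 0.0237). With the block 27.3% of all genes changed, a share not far from 3 of 8, and by DESeq2 8.14% did.

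The other 5 genes had log2 fold changes between -0.08 and 0.06 after YTHDC1 depletion and did not pass. The approximate 95% interval of the dTAG to Ctrl ratio was 0.909 to 1.10 for Ano3, 0.811 to 1.11 for Vipr1, 0.789 to 1.38 for Htr4, 0.822 to 1.28 for Rgs14 and 0.898 to 1.16 for Apol8. Ano3, for example, was at 16.3, 41.4 and 86.1 CPM in Ctrl and at 17.1, 38.8 and 89.2 CPM in dTAG libraries (lowest, median and highest). Rgs14 was at 15.8, 31.5 and 54.1 CPM against 10.9, 33.2 and 59.4 CPM. The arms of all 8 genes overlapped over the 6 libraries. Without replicate 1, Rgs14 was 0.22 higher on the log2 scale and passed (edgeR adjusted p 0.0233), beside Shpk, Sgcb and Slco2b1, and without replicate 2 it was 0.16 lower and Slco2b1 alone passed. Of all genes 25% changed without replicate 1 and 9.58% without replicate 2.

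Labelled RNA of the 8 genes was between -0.13 (Vipr1) and 0.53 (Slco2b1) on the log2 scale after YTHDC1 depletion, and none passed, against 2.30% of all genes (326 genes by limma, and 2073 at an unadjusted p under 0.05). Unlabelled RNA was between 0.03 (Ano3) and 0.67 (Slco2b1), with none past the threshold and 0.838% of all genes past it (119 by limma, and 1938 unadjusted). With the replicate block 2 of the 8 genes passed for labelled and 2 for unlabelled RNA, where 13.3% and 10.2% of all genes did. Loss of label over the chase was measured for Sgcb, Ano3, Rgs14 and Apol8, where the slopes of the arms differed by -0.12 to -0.01 per h on the log2 scale, and 0% of 8820 genes passed (limma, 195 at an unadjusted p under 0.05).

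After ZCCHC8 depletion all 8 genes fell. In this line 19.5% of genes were lower past the threshold (2728 of 13962, edgeR), and the median log2 fold change was -0.63 over the 8 genes and -0.0034 over all genes tested. Htr4 fell most, from a lowest, median and highest level of 1.14, 5.68 and 9.50 CPM in Ctrl to 0.902, 2.47 and 3.56 CPM in dTAG libraries, a log2 fold change of -1.07 (edgeR adjusted p 2.56e-04, SE 0.210, lower in 6 of 6 pairs). Vipr1, the other receptor gene, was at 4.93, 14.1 and 23.9 CPM in Ctrl and at 3.99, 8.35 and 12.0 CPM in dTAG, a log2 fold change of -0.75 (edgeR adjusted p 5.75e-05, SE 0.130, 6 of 6 pairs). The ranges of both arms overlapped for each of these genes, since the levels also rose with the chase.

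Rgs14 had the smallest p. Its lowest, median and highest level was 18.8, 42.5 and 76.6 CPM in ZCCHC8 Ctrl and 10.8, 27.3 and 39.0 CPM in dTAG libraries, a log2 fold change of -0.77 (edgeR adjusted p 1.20e-06, SE 0.0937, 6 of 6 pairs). It was also the gene whose replicates did not overlap at 0 min, at 18.8 and 24.8 CPM in Ctrl and 10.8 and 13.2 CPM in dTAG. Slco2b1 was at 4.55, 16.2 and 33.6 CPM against 4.25, 11.6 and 19.7 CPM, with -0.67 (edgeR adjusted p 0.00123, SE 0.146, 6 of 6 pairs). Shpk was at 4.17, 15.1 and 32.2 CPM against 5.31, 11 and 18.2 CPM, with -0.59 (edgeR adjusted p 6.57e-04, SE 0.125, 5 of 6 pairs).

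Apol8, Sgcb and Ano3 fell least in the ZCCHC8 line. Apol8 was at 15.7, 42.9 and 74.6 CPM in Ctrl and at 14.6, 29.9 and 50.1 CPM in dTAG libraries, a log2 fold change of -0.45 (edgeR adjusted p 0.0166, SE 0.133, 6 of 6 pairs). Sgcb was at 16.9, 41.5 and 61.5 CPM against 21.7, 30.6 and 39.3 CPM, with -0.35 (edgeR adjusted p 0.00377, SE 0.0911, 5 of 6 pairs), and Ano3 at 11, 35.7 and 68.7 CPM against 9.79, 27.9 and 51.7 CPM, with -0.34 (edgeR adjusted p 0.00700, SE 0.0947, 6 of 6 pairs). Leaving out 1 replicate ended 2 of these calls. Without replicate 1 Apol8 was at -0.17 (edgeR adjusted p 0.0796), and without replicate 2 Sgcb was at -0.33 (edgeR adjusted p 0.0993).

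**Figure D4:**
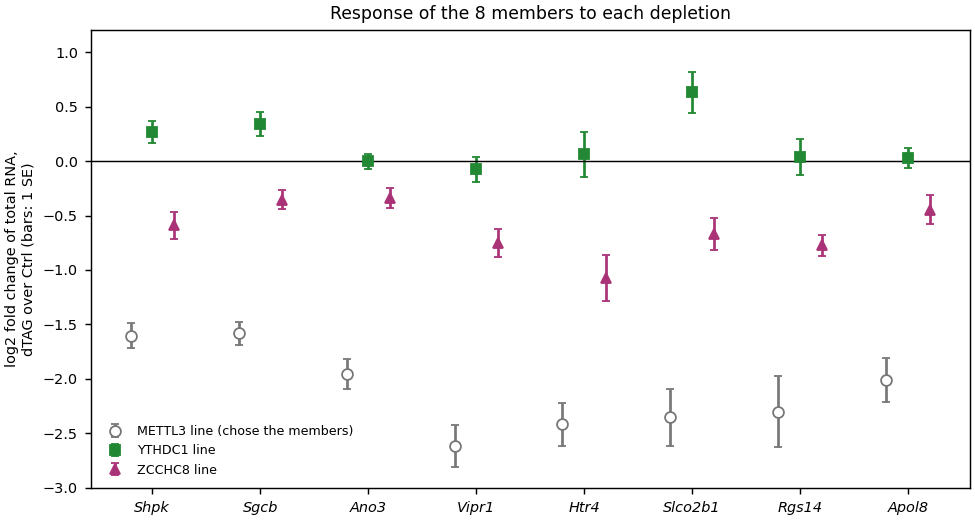
Log2 fold change of total RNA of the 8 genes, dTAG against Ctrl, in each line, with bars of 1 SE. All METTL3 values for total RNA lie at or below -1.58, YTHDC1 values for total RNA lie between -0.08 and 0.63, and ZCCHC8 values for total RNA between -1.07 and -0.34.

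In the ZCCHC8 line more of the 8 genes were lower without overlap after the chase than at 0 min. Their median level was 81.6% of Ctrl at 0 min and 55.5% at 180 min. Rgs14, at 55.2% and 54.7%, and Ano3, at 81.0% and 78.2%, differed little between these times. Total RNA was at 55.2% to 108% of Ctrl at 0 min, with no overlap between replicates in 1 of 8 genes, at 46.2% to 78.2% at 90 min with none in 7 of 8, and at 42.3% to 78.2% at 180 min with none in 8 of 8. Of all genes 24.7%, 28.3% and 29.4% were lower without overlap at these times. In the 180 min libraries alone 8 of 8 genes passed, against 8.57% of all genes, and in the 0 min libraries alone Rgs14 did, against 4.46% (edgeR). Sgcb was at 16.9 and 23.7 CPM in Ctrl and at 22 and 21.7 CPM in dTAG at 0 min. At 180 min it was at 61.5 and 53.0 CPM in Ctrl and at 39.3 and 38.4 CPM in dTAG. A change of the response with chase time was tested after these values were seen, and it did not pass for any of the 8 genes, with values of -0.22 (Slco2b1) to -0.00 (Ano3) per h on the log2 scale. In that test 0% of 13962 genes were lower past the threshold by edgeR, 987 had an unadjusted p under 0.05, and DESeq2 called 1 gene, none of the 8.

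Labelled RNA fell in 8 of 8 genes after ZCCHC8 depletion, where 14.9% of all genes fell (limma). The log2 fold changes ran from -0.30 (limma adjusted p 0.0314, SE 0.105) for Sgcb to -0.90 (limma adjusted p 0.00211, SE 0.213) for Htr4. At 180 min labelled Rgs14 RNA was at 44.6 and 32.5 CPM in Ctrl and at 21.7 and 23.8 CPM in dTAG, and labelled Shpk RNA at 20.0 and 18.6 CPM against 13.6 and 14 CPM. Without replicate 2 the labelled RNA of 5 of the 8 genes passed, Shpk, Sgcb and Slco2b1 being lost, and 9.03% of all genes fell. Unlabelled RNA was lower by 0.18 (Sgcb) to 0.54 (Vipr1) on the log2 scale, and 0 of the 8 genes passed, against 6.05% of all genes lower past the threshold (845 by limma, and 4689 changed at an unadjusted p under 0.05).

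The 8 genes responded differently to the loss of ZCCHC8 and of YTHDC1 in 6 cases. The ZCCHC8 response minus the YTHDC1 response in total RNA was -1.27 for Slco2b1 (edgeR adjusted p 0.00145, SE 0.261), -1.12 for Htr4 (adjusted p 0.0189), -0.83 for Shpk (adjusted p 0.00254), -0.82 for Rgs14 (adjusted p 0.00493), -0.66 for Sgcb (adjusted p 0.00558) and -0.63 for Vipr1 (adjusted p 0.020). It was -0.45 for Apol8 (edgeR adjusted p 0.0621) and -0.34 for Ano3 (edgeR adjusted p 0.0784), which did not pass, while both did with the replicate block, at edgeR adjusted p of 0.0106 and 0.00166. Of 14752 genes tested 8.70% had a lower response in the ZCCHC8 line past the threshold, and 18.8% with the block. Without replicate 2 the differences of Sgcb and Vipr1 did not pass (edgeR adjusted p 0.0960 and 0.0848) while that of Apol8 did, in a fit with 7.68% of all genes lower. The METTL3 response was not tested against the others. Side by side, the log2 fold changes of total RNA in the METTL3, YTHDC1 and ZCCHC8 lines were -2.62, -0.08 and -0.75 for Vipr1, and -1.95, -0.00 and -0.34 for Ano3.

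Without any depletion the 8 genes rose during the chase. In Ctrl libraries total RNA at 180 min was over 1.5-fold the level at 0 min in both replicates in 8 of 8 genes in each line, against 9.0% of genes tested in the METTL3, 11.3% in the YTHDC1 and 11.2% in the ZCCHC8 line. Folds over the chase, here and in the next paragraph, were taken after adding 0.5 CPM to both levels, so they differ slightly from ratios of the printed CPM. The median fold of all genes was 0.971 and 0.971 in the 2 replicates of METTL3 Ctrl, while the 8 genes rose 2.22-fold to 6.91-fold. Ano3 rose most in METTL3 Ctrl, from 12.0 and 18.9 CPM at 0 min through 40.3 and 46.1 CPM at 90 min to 86.0 and 94.3 CPM at 180 min. Vipr1 rose least, from 7.34 and 7.34 CPM to 16.9 and 18.3 CPM. The folds were 1.78 to 5.17 in YTHDC1 Ctrl and 1.63 to 7.00 in ZCCHC8 Ctrl.

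The mean level of labelled RNA was higher at 180 min than at 0 min for all 8 genes in the Ctrl libraries of each line, although labelled Htr4 was slightly lower in replicate 2 of the YTHDC1 and ZCCHC8 lines, at 0.968-fold and 0.978-fold. In METTL3 Ctrl, labelled Ano3 RNA had a mean of 10.1 CPM at 0 min, 27.9 CPM at 90 min and 41.4 CPM at 180 min, and labelled Rgs14 RNA of 21.2, 32.4 and 26.9 CPM. The median gene fell to 0.780 and 0.826 of its labelled level in the 2 replicates. Labelled RNA of the 8 genes at 90 and 180 min can therefore not be read as RNA of the pulse alone. Why it rose was not tested. The rise of total RNA was also present after depletion. It was over 1.5-fold in both replicates in 7 of 8 genes in METTL3 dTAG, 8 of 8 in YTHDC1 dTAG and 7 of 8 in ZCCHC8 dTAG libraries. Of genes tested in these libraries, 9.07%, 11.1% and 9.0% rose as much. The medium was changed at the start of the chase and time in culture is longer at its end, which cannot be told apart from the chase itself.

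**Figure D5:**
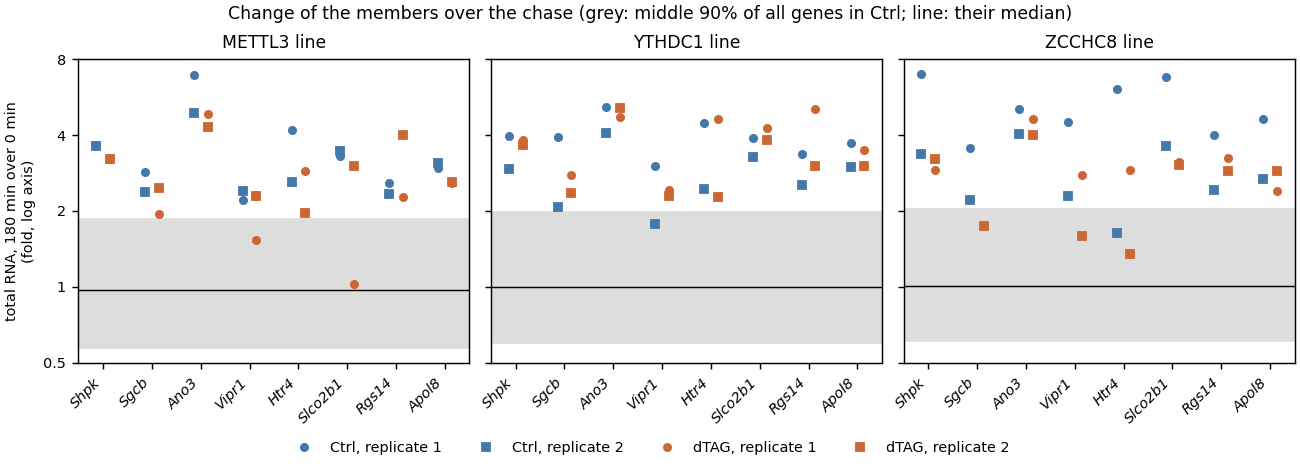
Change of total RNA of the 8 genes over the chase in each line, on a log2 axis. Each point is the fold of the last chase time over 0 min, within 1 replicate of the same arm, Ctrl or dTAG. A grey band shows the spread of all genes tested, with their median. In Ctrl every gene rises in both replicates. The folds do not compare the level of dTAG with that of Ctrl.

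Levels of the 8 genes were correlated over the libraries, which is in part built in, since the genes were chosen for a shared fall in the METTL3 libraries. Pearson's r of log2 CPM between them, each line's mean removed, was 0.887 (Ano3 and Vipr1) to 0.979 (Shpk and Ano3), with a median of 0.934 over 28 pairs and 36 libraries that share chase time, arm and depth. Over the 24 YTHDC1 and ZCCHC8 libraries alone, which the choice did not use, it was 0.850 to 0.971 with a median of 0.931, against a median of -0.0019 over all pairs of 13630 genes. Among 13622 other genes, those most like the mean of the 8 were Itgb2 (r 0.969), Usp44 (0.969) and Man2b1 (0.963). Their METTL3 log2 fold changes were -1.67, -0.87 and -0.92, and their ZCCHC8 log2 fold changes -0.56, -0.02 and -0.51. Fam159b was most like Sgcb (r 0.975), Brap most like Shpk (0.973), Tas1r1 most like Rgs14 (0.977), Man2b1 most like Apol8 (0.963) and Fam126a most like Ano3 (0.964). For Vipr1 it was Arhgef4 (0.947), for Htr4 Tcaf1 (0.949) and for Slco2b1 Itgb2 (0.955).

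Relatives of the receptor genes moved in both directions. Counts here and for the relatives that follow should be read beside those of all genes tested. In the METTL3 line 1269 of 14413 fell and 1629 rose. In the YTHDC1 line 394 of 14199 fell and 352 rose, and in the ZCCHC8 line 2728 of 13962 fell and 2805 rose. Of 32 genes of Gs-coupled receptors and cyclic AMP signalling, 23 were tested in the METTL3 line, of which 5 fell, 1 rose and 17 did not pass, with a median of -0.28 against 0.01 over all genes. Crhr2, a corticotropin-releasing hormone receptor, had means of 15.6 ± 2.61 and, with dTAG, 7.68 ± 1.13 CPM (SD, n = 6) and fell by 1.02 on the log2 scale (edgeR adjusted p 9.42e-04, lower in 6 of 6 pairs). The glucagon-like peptide receptor Glp1r fell by 0.82 (edgeR adjusted p 0.0153) and the adenylyl cyclase Adcy7 by 0.71 (edgeR adjusted p 0.00147), while the parathyroid hormone receptor Pth1r rose by 1.66 (edgeR adjusted p 0.00769). In the ZCCHC8 line 5 of 21 fell and 2 rose, among them Adcy1, which fell by 0.86 (edgeR adjusted p 1.92e-08). In the YTHDC1 line 1 of 22 fell, the phosphodiesterase Pde4c, by 1.35 (edgeR adjusted p 0.00231).

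Of 25 regulators of G protein signalling and Gi genes, 17 were tested in the METTL3 line. Rgs5, at 3.24 ± 1.24 and 1.33 ± 0.720 CPM (SD, n = 6), was 1 of 2 that fell, with a log2 fold change of -1.32 (edgeR adjusted p 0.00312), and Rgs10 was 1 of 2 that rose, by 0.90 (edgeR adjusted p 0.0175). None of the 17 passed in the YTHDC1 line by edgeR, and in the ZCCHC8 line 3 of 15 rose and 3 fell, with Rgs2 higher by 1.44 (edgeR adjusted p 6.00e-04) and Rgs3 lower by 0.79 (edgeR adjusted p 1.06e-06). Of the 5 Slco transporters tested, Slco4a1 fell in the METTL3 line, by 1.02 (edgeR adjusted p 0.0359), none passed in the YTHDC1 line, and Slco2a1 rose in the ZCCHC8 line by 0.97 (edgeR adjusted p 0.00320) while 1 other fell. The list medians of these transporters were 0.24 and -0.0049 in the METTL3 and ZCCHC8 lines.

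Of 13 genes of pentose phosphate and sedoheptulose metabolism around Shpk, 1 fell and 2 rose in the METTL3 line, with the transketolase-like Tktl2 higher by 0.91 (edgeR adjusted p 0.00185). In the ZCCHC8 line 6 fell and 3 rose, with H6pd, the hexose-6-phosphate dehydrogenase of the endoplasmic reticulum, lower by 0.74 (edgeR adjusted p 2.00e-07), and in the YTHDC1 line 1 rose. Of 10 dystrophin complex genes tested around Sgcb, 2 fell and 1 rose in the METTL3 line and 5 fell in the ZCCHC8 line. The share of all genes that fell was 8.80% in the METTL3 line and 19.5% in the ZCCHC8 line. The syntrophin Sntb1 fell in the ZCCHC8 line by 0.90 (edgeR adjusted p 1.28e-04) and rose in the YTHDC1 line by 0.95 (edgeR adjusted p 0.0437).

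Of 7 anoctamins tested in the METTL3 line, Ano5 alone fell, by 1.45 (edgeR adjusted p 0.00788, lower in 5 of 6 pairs), at 1.33 ± 0.841 and 0.460 ± 0.270 CPM (SD, n = 6). None of the 7 passed in the YTHDC1 line, and 2 of 6 fell and 1 rose in the ZCCHC8 line, with Ano10 lower by 0.68 (edgeR adjusted p 0.0350). Of 11 further apolipoprotein L genes only Apol10b was tested in the METTL3 line. It fell by 1.32 (edgeR adjusted p 0.0160), and Apol7b rose by 0.99 in the ZCCHC8 line (edgeR adjusted p 0.0172).

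Genes next to the 8 on the chromosome mostly did not pass in the METTL3 line, where 4 of 16 listed neighbours did. Among all 14413 genes tested there 1269 fell and 1629 rose past the threshold, a share not far from 4 of 16. The 4 are given as a description. Sec22c, a vesicle trafficking gene 7091 bases from Vipr1 on the other strand, fell by 0.87 (edgeR adjusted p 0.00912), and by 0.92 in the ZCCHC8 line (edgeR adjusted p 1.38e-06). Apol10b, 151673 bases from Apol8, fell as given above. The sialidase gene Neu3, 100099 bases from Slco2b1, fell by 0.39 (edgeR adjusted p 0.0379). Fbxo38, an F-box protein gene 7578 bases from Htr4, rose by 0.45 (edgeR adjusted p 0.0275).

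Some markers of other cell types moved in the same libraries, and their part in the values of the 8 genes was not tested. In the METTL3 line none of the 10 embryonic stem cell markers passed by edgeR, and they summed to 2854 to 4259 CPM in Ctrl and 2911 to 3716 CPM in dTAG libraries. Among all 14413 genes tested in this line, 1629 rose past the threshold. Eomes, 1 of 5 trophoblast markers tested, rose by 1.80 (edgeR adjusted p 1.56e-04). Dab2 and Gata6, 2 of 7 of primitive endoderm, rose by 1.24 and 1.10 (edgeR adjusted p 0.00197 and 0.0378). Twist1 and Acta2, 2 of 8 of fibroblasts, rose by 1.48 and 1.30 (edgeR adjusted p 9.42e-04 and 0.0372). Fgf5, 1 of 7 of the epiblast, rose by 1.10 (edgeR adjusted p 0.00247). The medians of these 4 lists were 0.43, 0.01, 0.17 and 0.25, against 0.01 over all genes. Of the epiblast list Dnmt3b fell, by 0.51 (edgeR adjusted p 0.00360), and the list summed to 340 to 633 CPM in Ctrl and 247 to 494 CPM in dTAG libraries. The fibroblast list summed to 27.6 to 70.8 CPM in Ctrl and 31.3 to 85.5 CPM in dTAG libraries, the primitive endoderm list to 193 to 420 CPM and 213 to 469 CPM, and the trophoblast list to 65.3 to 112 CPM and 66.9 to 159 CPM. Lum was at 0 in METTL3 Ctrl, and all other markers of these lists were detected. In the ZCCHC8 line 2805 of 13962 genes tested rose past the threshold and 2728 fell. There 4 of 10 embryonic stem cell markers rose and 1 fell, and 4 of 5 trophoblast markers rose. Of the epiblast markers 4 of 7 rose, Otx2 by 0.84 and Pou3f1 by 0.79 (edgeR adjusted p 2.91e-05 and 3.81e-04). Of primitive endoderm 2 of 8 rose and 1 fell, and of fibroblasts 1 of 8 fell. None of the markers of any list passed in the YTHDC1 line (edgeR).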

How the data were processed

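SLAM-seq libraries of 3 degron lines were compared, dTAG against Ctrl. The labels give each line, arm, chase time and replicate number. The 8 genes, the gene lists and the rule for naming genes were chosen with earlier results of these data known. The rule named all 8 genes, list members past the threshold with a fold over 1.5 (at most 4 per list and line), neighbours past it in the METTL3 line and the 3 genes most alike.

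The authors removed rRNA reads, aligned the rest to mm10 with STAR (2.5.2b in the submitters' processing notes), kept unique end-to-end alignments with few mismatches and ran GRAND-SLAM over 6 libraries per table, whose version, annotation release and counting strand are not given in the sources used here. A mismatch limit can lose strongly labelled reads. The deposited counts are raw read counts per gene. The deposited new-to-total ratio is a fraction of reads assigned to new RNA (posterior maximum, with quantiles and mean), estimated in each table separately. The deposited conversion and coverage values are sums over reads. In all, 180 further columns were not used here.

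Counts were tested by edgeR 4.0.16 (filterByExpr, TMM, quasi-likelihood F test, chase time as a factor) over all genes of a line, with Benjamini-Hochberg adjustment and a threshold of 0.05. Labelled and unlabelled RNA, the count multiplied by the ratio or its complement, were tested as log2(CPM + 0.5) by limma 3.58.1, as was label loss, on the log2 ratio (minimum of 100 reads and a ratio of 0.02 throughout a line). Fold changes with a pseudocount understate changes of low genes. TPM used the gene lengths of the tables. The tests were checked on simulated data. Other software was DESeq2 1.42.0, R 4.3.3 and Python 3.11.15.

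Replicates 1 and 2 differed by more than sampling noise (chi-square per degree of freedom 2.45 to 77.9). Nothing used here says that they were separate cultures, so p-values measure the spread between these libraries. The labels give the arms the same numbers, and same-numbered libraries deviated together in every line and chase time (correlation 0.19 to 0.79), so a fit with the replicate number as a block is given where it changes a call.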

Additional observations from a re-analysis of the deposited data

Results flagged for a closer look

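The response to ZCCHC8 depletion differed from the response to YTHDC1 depletion in 6 of the 8 genes by a test of the difference itself, the line by arm interaction in total RNA over 24 libraries (edgeR). On the log2 scale the difference was -0.83 for Shpk, -0.66 for Sgcb, -0.63 for Vipr1, -1.12 for Htr4, -1.27 for Slco2b1 and -0.82 for Rgs14, with edgeR adjusted p of 0.00254, 0.00558, 0.020, 0.0189, 0.00145 and 0.00493. Among all 14752 genes in this test, 8.70% had a lower response in the ZCCHC8 line past the threshold, and 18.8% with the replicate block. Each of the 6 genes was lower in the ZCCHC8 line, where 5 or 6 of 6 pairs fell. Without replicate 2 the differences of Sgcb and Vipr1 did not pass (edgeR adjusted p 0.0960 and 0.0848). The lines are single clones that also differ in depth. No group had enough samples for a search for outlying libraries.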

How the results depend on the processing

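With libraries of 1 chase time or with chase libraries summed, few samples remain, and 0 genes passed in the METTL3 or YTHDC1 lines (0 min, 180 min and summed for total, 0 min for labelled and unlabelled RNA). In the ZCCHC8 line 594 genes were lower in total RNA at 0 min, 1173 at 180 min and 1768 with chase libraries summed, and 358 in labelled and 65 in unlabelled RNA at 0 min. At 0 min 1 of the 8 genes passed for total and 1 for labelled RNA, with Sgcb turning to 0.086 and 0.087. The 0 min and 180 min settings for total RNA, and the test of change per h of chase, were chosen after seeing the data. Unlabelled Shpk in the METTL3 line turned to 0.24 at 0 min.

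With the replicate number as a block, 3474 (total), 4042 (labelled) and 1176 (unlabelled) genes were lower in the METTL3 line, 3874, 1886 and 1451 changed in the YTHDC1 line, 2780 were lower for the difference between the ZCCHC8 and YTHDC1 responses, and 6 for the change per h. Of the 8 genes, 3 (total), 2 (labelled) and 2 (unlabelled) then changed in the YTHDC1 line. Beside these and the 8 of 8 for the difference between lines, the block changed no call of the 8 genes.

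With label shares scaled to a common median, 775 genes (labelled) and 1122 (unlabelled) were lower in the METTL3 line, and 237 changed in unlabelled RNA in the YTHDC1 line. In the ZCCHC8 line 2 of the 8 genes were then lower in unlabelled RNA, as with a pseudocount of 2 CPM. The share of all genes lower under these 2 settings is not given here, so nothing is read from the 2 of 8. In the main fit 845 of 13962 genes were lower. DESeq2 called 1156 genes and 1 of the 8 in the YTHDC1 line. Of the change per h, 1 gene was called by DESeq2 and 1 without a filter on low counts, where Ano3 turned to 0.00050. In the YTHDC1 line small values of total RNA changed sign, Ano3 to 0.0033 with upper-quartile factors, 0.0040 with the block and 0.087 at 180 min, Htr4 to -0.00087 and Apol8 to -0.020 with chase libraries summed, Vipr1 to 0.020 at 0 min and 0.025 at 180 min, and Rgs14 to -0.17 at 0 min.

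Leaving out 1 replicate in turn gave 2612 to 3816 genes lower in total, 3015 to 3838 in labelled and 398 to 743 in unlabelled RNA without METTL3. After YTHDC1 depletion 1335 to 3555 genes changed in total RNA (1 to 4 of the 8), 401 to 1900 in labelled RNA (0 to 2 of the 8), 509 to 511 in unlabelled RNA and 15 to 31 in label loss. In the ZCCHC8 line 1639 to 2532 genes were lower in total, 1261 to 1519 in labelled (5 to 6 of the 8) and 202 to 239 in unlabelled RNA, 1111 to 2574 for the difference between lines (5 to 8 of the 8), and 25 to 84 for the change per h (0 to 1 of the 8). Values that changed sign ranged, in the YTHDC1 line, from 0.0016 to 0.018 for Ano3, -0.17 to 0.036 for Vipr1, -0.063 to 0.19 for Htr4, -0.16 to 0.22 for Rgs14 and -0.10 to 0.12 for Apol8. For label loss they ranged from -0.041 to 0.018 for Sgcb and -0.040 to 0.023 for Rgs14 in the YTHDC1 line and from -0.0089 to 0.021 for Sgcb in the METTL3 line, and for the change per h from -0.11 to 0.048 for Rgs14 and -0.29 to 0.032 for Apol8. The causes were not tested.

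All 72 values of total RNA of the 8 genes in the METTL3 line kept their direction under the alternatives run. Htr4 and unlabelled RNA at 0 min rest on few reads, which limits their precision.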
